A study of Homo sapiens with 4 samples.

Results

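The circles described here are the circular RNAs (circRNAs) that carry a number from 10000 upward in circBase, a public catalogue that gives each human circle an identifier beginning with hsa_circ_. They were taken from the deposited table by that number and by having at least 1 count over the 4 libraries, and 9662 of the 29586 identifiers with a count met both conditions. Of these, 6409 had numbers under 100000 and 3253 had numbers from 100000, and both classes are shown apart. The study counted back-splice reads in a pair of established cell lines of human pancreatic ductal adenocarcinoma, MiaPaCa-2 and PANC-1, left untreated (control) or treated with thymoquinone (TQ), a quinone found in the seed of Nigella sativa. TQ was given for 24 h at 20 µM to MiaPaCa-2 but at 10 µM to PANC-1, so dose and line cannot be told apart. Each line and treatment had 1 library. Within a line there is therefore no replicate check, the intervals given cover counting error only, and no p-value is given. Linear RNA was digested with ribonuclease R before sequencing, so messenger RNA markers of the lines were not checked here.

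A circRNA forms when the spliceosome joins the end of an exon to the start of the same or an earlier exon. The resulting ring has no free ends, resists exonucleases and can persist in cells longer than the linear transcript of its host gene. Each ring is recognised by reads across its back-splice junction, which is absent from the linear transcript. Many rings are made at low levels, while a few abundant ones have been studied as binders of microRNAs or proteins. A circBase number is a catalogue entry and carries no expression value. The files and the reference tables pair no identifier with a position, host gene or sequence, so none is printed for the circles below.

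The table listed 21825 circBase identifiers from 10000 upward, of which 12163 had 0 counts in every library and 44.3% were detected. Detection reached 46.6% of 13741 listed identifiers with numbers under 100000 and 40.2% of 8084 with numbers from 100000. Among the 5821 listed circBase identifiers below 10000 it was 73.7%, and among circRNA identifiers without a circBase number 29.8%. At the lower edge of the number range, 61.6% of the identifiers numbered from 9000 to under 10000 were detected, with a mean of 11.8 counts per detected circle. Numbers from 10000 to under 11000 had 51.6% detected and a mean of 3.25 counts. The nearest detected circle below the edge was hsa_circ_0009987, with 2 counts, and the nearest above it was hsa_circ_0010029, with 6. At the other boundary hsa_circ_0099971 had 5 counts and hsa_circ_0100006 had 2.

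Most of the circles were rare. Their median was 2 counts over the 4 libraries and their mean 4.28, against a median of 7 and a mean of 19.2 for circBase circles below 10000. All identifiers together also had a median of 2, with a mean of 5.9997, so the low median was not particular to these circles. A single count in all was the whole evidence for 3703 circles (38.3%, beside 37.7% of all identifiers), and 5120 more had 2 to 9 counts. At least 10 counts were reached by 839 circles (8.68%), which held 45.4% of the counts of all 9662. The share reaching 10 counts was 10.2% for numbers under 100000 and 5.66% for numbers from 100000, while 40.7% of circles below 10000 and 11.3% of all identifiers reached it. At least 100 counts were reached by 14 circles, 13 of them with numbers under 100000. The 10 most abundant circles together held 5.52% of the counts, so no small set dominated.

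Circles from 10000 upward took between 21.2% and 24.2% of the back-splice counts of a library. The total back-splice counts of the libraries ranged from 15819 in treated MiaPaCa-2 to 67964 in treated PANC-1. In MiaPaCa-2 the share was 21.8% in control (95% Clopper-Pearson interval 21.4 to 22.2) and 21.2% in TQ (20.6 to 21.9). In PANC-1 it was 24.0% in control (23.6 to 24.4) and 24.2% in TQ (23.9 to 24.5). Both PANC-1 libraries lay above both MiaPaCa-2 libraries, by 2.63 percentage points on average. An exact permutation test over 2 libraries against 2 gave a two-sided p = 0.333, which is the smallest this design allows. Identifiers of circRNAs without a circBase number also had higher shares in PANC-1 (26.1% and 26.4%) than in MiaPaCa-2 (22.4% and 22.6%). Those of circBase circles below 10000 were lower in PANC-1 (45.0% and 45.7%) than in MiaPaCa-2 (48.4% and 47.0%). For circles from 10000 upward, treated and control libraries differed by -0.18 points on average, less than the distance between the lines (exact permutation test, two-sided p = 1). That average joined -0.557 points in MiaPaCa-2 and 0.197 points in PANC-1. The permutation did not keep libraries paired by line, so its p does not measure the difference with treatment within a line. Numbers under 100000 made up 2.06 of the 2.63 points between the lines, and their share was 16.03% and 15.7% in untreated and treated MiaPaCa-2 and 18.0% and 17.8% in untreated and treated PANC-1. Numbers from 100000 took 5.75% in untreated and 5.53% in treated MiaPaCa-2, and 5.998% in untreated and 6.40% in treated PANC-1.

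**Figure D1:**
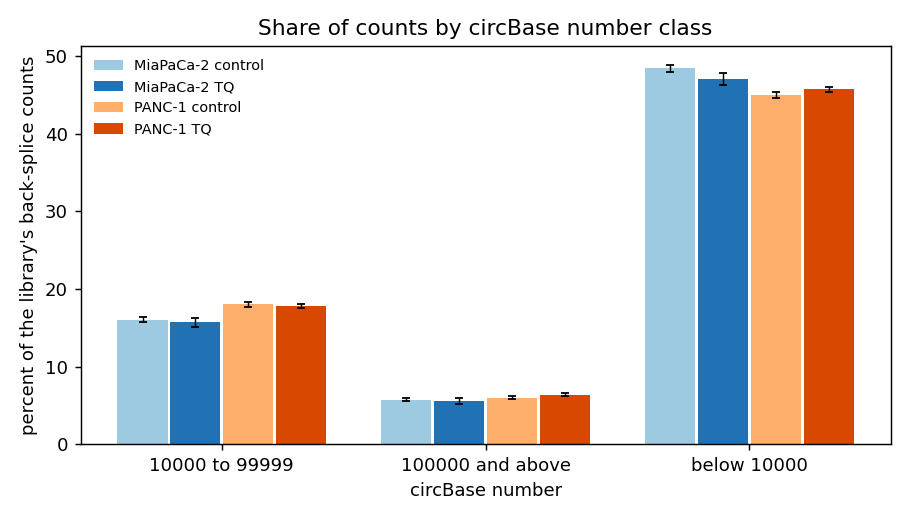
Share of each library's back-splice counts (vertical axis, percent) in 3 classes of circBase number (horizontal axis). Bars are single libraries and error bars are 95% Clopper-Pearson intervals from counting error only. For numbers under 100000 both PANC-1 bars (18.0% and 17.8%) stand above both MiaPaCa-2 bars (16.03% and 15.7%).

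Abundance changed along the catalogue numbers. In bins of 10000 numbers, 42.3% to 50% of the listed identifiers were detected in the 9 bins under 100000, and 38.6% to 42.1% in the 4 full bins from 100000. The bin from 80000 had the highest detection, 784 of 1568 identifiers, the highest mean, 5.497 counts per detected circle, and the largest part found in both lines, 31.6%. The bin from 120000 had the lowest mean, 2.91 counts. From 90000 upward the part found in both lines was 14.6% to 21.1%, where the bins from 10000 to 80000 had 24.3% to 31.6%. The last bin, from 140000, held only 103 listed and 41 detected identifiers.

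**Figure D2:**
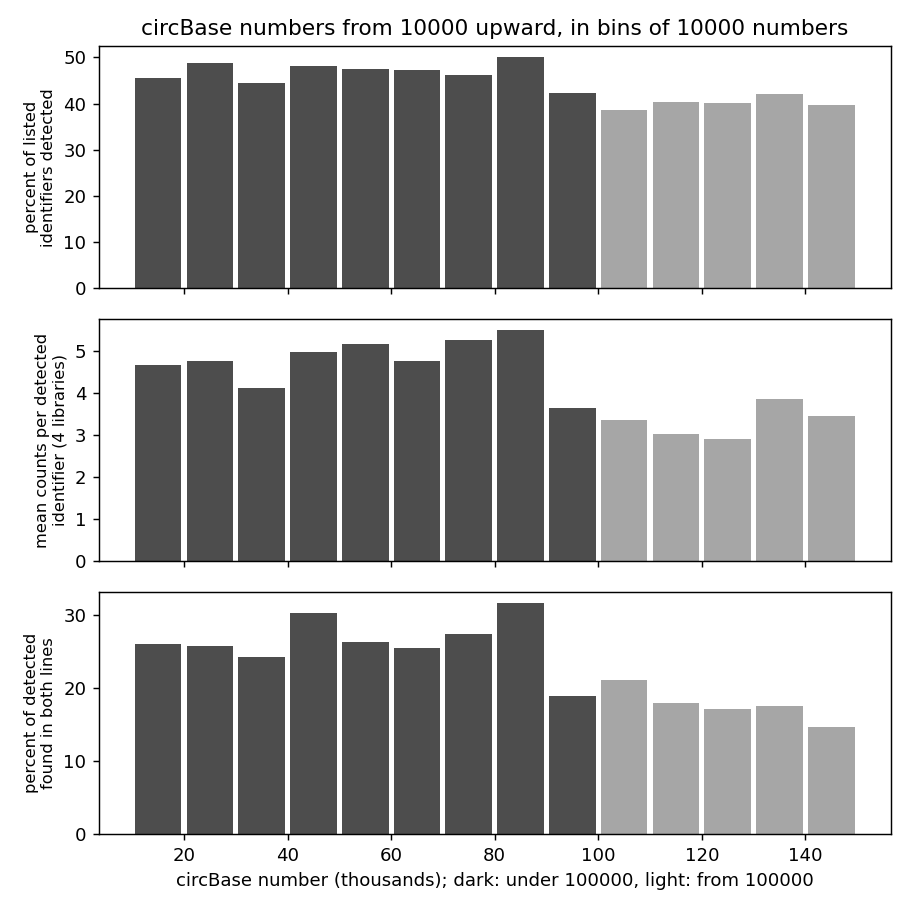
Bins of 10000 circBase numbers (horizontal axis) against the percent of listed identifiers detected (top), the mean counts per detected identifier over the 4 libraries (middle) and the percent of detected identifiers found in both lines (bottom). Dark bars are numbers under 100000 and light bars numbers from 100000. All 3 measures peak in the bin from 80000, at 50%, 5.497 counts and 31.6%.

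The 10 circles with most counts among numbers under 100000 had between 118 and 449 counts in all, and 9 of them were found in every library. The most abundant, hsa_circ_0069152, ranked 11 among all identifiers of the table. It had 17 counts in untreated MiaPaCa-2, 18 in treated MiaPaCa-2, 168 in untreated PANC-1 and 246 in treated PANC-1. Scaled to CPM, which puts every library on the same total, this was 377 and 1138 in untreated and treated MiaPaCa-2, against 3455 and 3620 in PANC-1, so both PANC-1 libraries were high and both MiaPaCa-2 libraries low. Its scaled ratio of treated to untreated MiaPaCa-2 was 2.54, with a 99% interval of 0.997 to 6.52 that includes 1. In the same order of libraries, hsa_circ_0071653 had 80, 37, 121 and 142 counts. The third, hsa_circ_0085616, had 36, 12, 130 and 144 counts, and the fourth, hsa_circ_0012152, had 18, 5, 119 and 107. These last ones were, like the first, far higher in both PANC-1 libraries, while hsa_circ_0071653 had many counts in each library.

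A pair of abundant circles had the opposite pattern. In the order untreated MiaPaCa-2, treated MiaPaCa-2, untreated PANC-1 and treated PANC-1, hsa_circ_0051680 had 81, 44, 32 and 30 counts and hsa_circ_0087938 had 95, 37, 10 and 17. The treated MiaPaCa-2 counts of both exceeded their PANC-1 counts although that library was the shallowest. The remaining ones were closer between lines or higher in PANC-1, with 28, 4, 47 and 57 counts for hsa_circ_0044177, 11, 5, 54 and 66 for hsa_circ_0051077 and 19, 20, 37 and 51 for hsa_circ_0046263. The tenth, hsa_circ_0023966, had 0 in both MiaPaCa-2 libraries, 36 in untreated PANC-1 and 82 in treated PANC-1.

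Among numbers from 100000 the 10 most abundant circles had 47 to 134 counts, and 7 were found in every library. The first, hsa_circ_0105829, had 48 counts in untreated MiaPaCa-2, 16 in treated MiaPaCa-2, 24 in untreated PANC-1 and 46 in treated PANC-1, and it ranked 101 among all identifiers. The second, hsa_circ_0107809, had 13, 13, 29 and 38 counts in that order. In CPM, hsa_circ_0105829 stood at 1064 in untreated and 1011 in treated MiaPaCa-2, above 494 in untreated and 677 in treated PANC-1. In contrast, hsa_circ_0132255 had 0, 0, 29 and 36 counts and hsa_circ_0122319 had 0, 0, 24 and 40, so these were counted in PANC-1 libraries only. The circle hsa_circ_0119881 had 16, 7, 0 and 55 counts, with its only zero in untreated PANC-1. The others were hsa_circ_0114956 (12, 7, 13 and 30), hsa_circ_0135761 (7, 5, 23 and 22), hsa_circ_0120702 (13, 5, 14 and 18), hsa_circ_0124204 (4, 3, 11 and 30) and hsa_circ_0135939 (1, 4, 14 and 28). Their counts were highest in a PANC-1 library, the deeper ones.

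**Figure D3:**
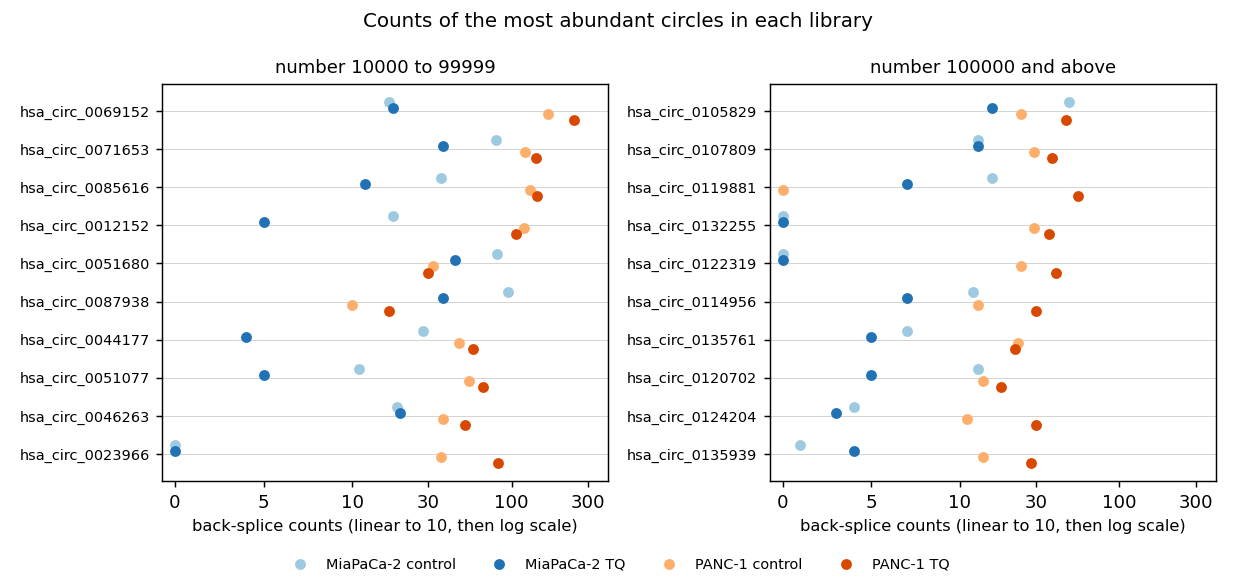
Back-splice counts (horizontal axis, linear to 10 and logarithmic above) of the 10 most abundant circles in each number class (vertical axis). Each point is 1 library, coloured by line and treatment, with no scaling for depth. The circles hsa_circ_0023966, hsa_circ_0132255 and hsa_circ_0122319 have 0 counts in both MiaPaCa-2 libraries.

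Of 11 circles known from cancer studies and looked for by identifier, 7 were listed and 3 of these had a count, where 44.3% of all listed identifiers from 10000 upward did. Their host genes are given as background and do not come from the files. The circle of PRKCI (hsa_circ_0067934), the gene of an atypical protein kinase C, had 2 counts, all in untreated MiaPaCa-2. That of ACP6 (hsa_circ_0013958), a lysophosphatidic acid phosphatase gene, had 1, also in untreated MiaPaCa-2. The circle of ZNF83 (hsa_circ_0052112), a zinc finger gene, had 4 counts in untreated MiaPaCa-2 and 5 in treated PANC-1, and 0 in the other libraries. The circles of ZFR (hsa_circ_0072088), a zinc finger RNA-binding protein gene, PDE8A (hsa_circ_0036627), a cyclic AMP phosphodiesterase gene, CCT3 (hsa_circ_0014717), a chaperonin subunit gene, and RNF121 (hsa_circ_0023404), a ubiquitin ligase gene, had 0 in every library. Taken as 3 counts, the upper limit behind a zero was 0.0190% of the library in treated MiaPaCa-2 and 0.00441% in treated PANC-1, from counting error alone. In bulk RNA, fewer cells carrying a circle and fewer copies per cell cannot be told apart.

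The lines shared 2286 of the 9662 circles, or 23.7% (95% Clopper-Pearson interval 22.8 to 24.5). MiaPaCa-2 alone had 2221 and PANC-1 alone 5155. Of the 4507 circles detected in MiaPaCa-2, 50.7% were also detected in PANC-1, and of the 7441 in PANC-1, 30.7% were also detected in MiaPaCa-2. Sharing was 26.3% for numbers under 100000 and 18.5% for numbers from 100000, and 55.0% for circBase circles below 10000. All identifiers of the table together had 20.9%. A higher minimum lowered the shared part of the circles from 10000 upward, to 21.7% at 2 counts in a line and 19.3% at 5. It fell for circBase circles below 10000 too, to 51.0% and 46.2%. For all identifiers together it rose, to 22.6% and 29.0%. Sharing of circRNA identifiers without a circBase number also rose, from 10.4% to 11.8% and 17.4%. The PANC-1 libraries were deeper together, and the part of depth in these numbers was not tested.

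Detection in all 4 libraries was rare, at 335 circles or 3.47%, against 4.65% of all identifiers and 19.5% of the circBase circles below 10000. These 335 circles held 23.2% of the counts of the 9662. Of numbers under 100000, 273 (4.26%) were found in every library, and of numbers from 100000, 62 (1.91%). Found in 1 library alone were 6361 circles (65.8%, beside 70.8% of all identifiers), which were 1576 in untreated MiaPaCa-2, 490 in treated MiaPaCa-2, 1686 in untreated PANC-1 and 2609 in treated PANC-1. Counts of at least 10 in each of the 4 libraries were reached by 10 circles.

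With every library brought down to the 15819 counts of the shallowest by rarefaction, an exact calculation of the number expected, untreated MiaPaCa-2 had 2054 of the circles and treated MiaPaCa-2 1548. Untreated PANC-1 had 2172 and treated PANC-1 2305. The number was thus lower in the treated than in the control library of MiaPaCa-2 and higher in that of PANC-1. All identifiers went the same way, with 6659 in untreated and 5089 in treated MiaPaCa-2, and 6931 and 7146 in PANC-1. The difference was therefore not particular to these circles. At this depth the libraries of the same line shared the most, as a percent of the circles found in either. Untreated and treated PANC-1 shared 18.8% of the circles found in either, and untreated and treated MiaPaCa-2 shared 15.8%. The 2 control libraries shared 14.6% and the 2 TQ libraries 12.4%. All identifiers had the same order, with 22.1% for the PANC-1 pair, 18.6% for the MiaPaCa-2 pair and 18.1% for the controls. For circBase circles below 10000 the controls shared 41.2% and the MiaPaCa-2 pair 38.7%. These are values of single libraries, and the differences between pairs were not tested.

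Some circles were plentiful in one line and uncounted in the other. At least 5 counts in each PANC-1 library and 0 in both MiaPaCa-2 libraries were seen for 94 circles, which were 28.8% of the 326 reaching 5 in each PANC-1 library, beside 18.1% for all identifiers (288 of 1587). The reverse was seen for 5 circles, 6.67% of the 75 reaching 5 in each MiaPaCa-2 library, beside 7.32% for all identifiers (41 of 560). Named after their values were seen, with untreated before treated MiaPaCa-2, these were hsa_circ_0011950 (5 and 6 counts), hsa_circ_0040943 (6 and 5 counts), hsa_circ_0057261 (5 and 8 counts), hsa_circ_0109242 (7 and 8 counts) and hsa_circ_0136642 (8 and 5 counts). Of the 94, 68 had numbers under 100000 and 26 had numbers from 100000. These were 25.3% of 269 and 45.6% of 57 reaching 5 in each PANC-1 library. By the same measure, circRNA identifiers without a circBase number had 29.0% (76 of 262) and circBase circles below 10000 had 10.7% (103 of 966). With a minimum of 10 counts the numbers were 22 for PANC-1 and 0 for MiaPaCa-2. These were 23.4% of the 94 circles reaching 10 in each PANC-1 library and 0% of 16 in MiaPaCa-2. For all identifiers the shares were 10.9% (75 of 688) and 2.49% (5 of 201). The MiaPaCa-2 libraries together held fewer counts than those of PANC-1, and the part of depth in this asymmetry was not tested.

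To compare 2 libraries, each identifier of the table was called higher or lower where it had at least 10 counts over both, a scaled difference of 2-fold or more (a ratio from 2 upward or from 0.5 downward), and an exact 99% interval that excluded a ratio of 1. Library scales came from the trimmed mean of M-values (TMM). Between the control libraries, 63 of 347 circles were higher in PANC-1, or 18.2%, beside 15.5% of all 1811 identifiers considered. Lower in PANC-1 were 27, or 7.78%, beside 13.2% of all. Numbers under 100000 gave 48 higher and 20 lower of 286, and numbers from 100000 gave 15 and 7 of 61. The median log2 ratio of PANC-1 to MiaPaCa-2 was 0.36 for the 347 circles and -0.0027 for all identifiers considered. Most calls had a zero, with 43 of the 63 at 0 in untreated MiaPaCa-2 and 18 of the 27 at 0 in untreated PANC-1. Among all identifiers these were 143 of 281 and 117 of 239.

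Between the TQ libraries, which are different from the control libraries, 26 of 288 circles were higher in PANC-1 (9.03%, beside 12.4% of all 1598 identifiers considered) and 16 were lower (5.56%, beside 9.01%). Of the 63 circles higher in PANC-1 in control, 18 were called higher with TQ too, which is 28.6% of the control calls and 69.2% of the TQ calls. For all identifiers these shares were 36.3% and 51.5%. All 46 of the 63 that had at least 10 counts over the TQ libraries had a ratio above 1 there, as did 212 of 228 among all identifiers. The median log2 ratio between the TQ libraries was 1.13 for the 288 circles and 0.93 for all identifiers considered. Ratios above 1 were thus common there, and the minimum could be reached through PANC-1 counts alone. The side of 1 is therefore not a separate check of the control calls. Of the 27 lower ones, 5 were called lower with TQ too (18.5%, beside 23.0% for all identifiers), and 8 of the 11 with enough counts had a ratio below 1, as did 107 of 138 among all identifiers. Called in the opposite direction with TQ were 0 of the 63 and 0 of the 27, beside 2 of 281 and 3 of 239 among all identifiers. The TQ comparison depended on the scale, with 71 higher and 10 lower by TMM over every identifier and 19 higher and 21 lower by total counts. Among the 182 circles considered that were above 0 in both TQ libraries, 8 were higher and 16 lower, beside 67 and 126 of 1053 identifiers.

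**Figure D4:**
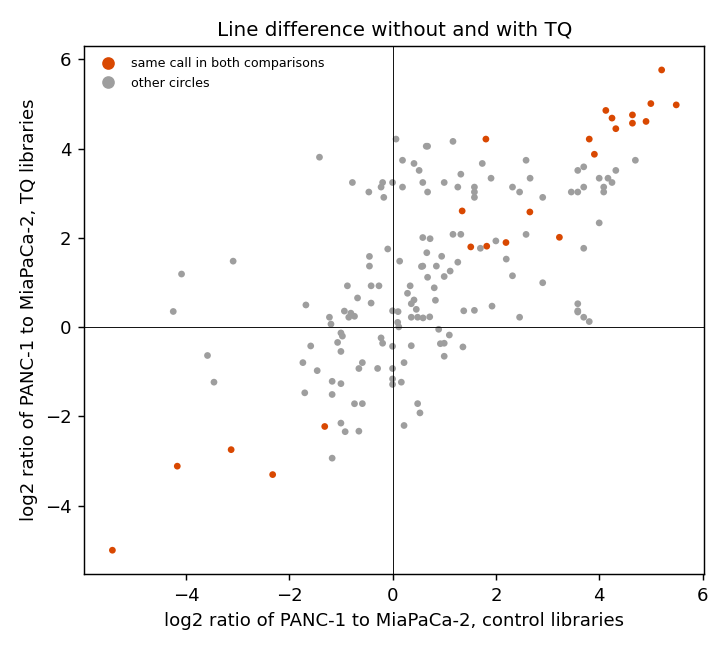
The log2 ratio of PANC-1 to MiaPaCa-2 in the control libraries (horizontal axis) and in the TQ libraries (vertical axis), with a prior count averaging 1 per library. Each point is 1 of the 169 circles with at least 10 counts in both comparisons. The 23 circles called in the same direction in both are coloured, and 131 of the 169 lie on the same side of 0 on both axes. Between the TQ libraries the median log2 ratio of the 288 circles considered was 1.13, so the side of 0 is not a separate check.

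A test over all 4 libraries used edgeR's quasi-likelihood fit with terms for line and treatment, which leaves 1 residual degree of freedom. Its p-values measure the spread between these libraries, which may be technical. Only 101 of the 9662 circles passed its filter on low counts, among 827 identifiers. For PANC-1 against MiaPaCa-2, edgeR called 0 of the 101 after Benjamini-Hochberg adjustment, beside 0.121% of all identifiers higher and 0% lower. An unadjusted edgeR p under 0.05 was seen for 22 of the 101, beside 146 of all 827. The lowest p among circles lower in PANC-1 was that of hsa_circ_0087938, with a log2 fold change of -3.03 (SE 0.38, edgeR adjusted p = 0.184). Next was hsa_circ_0068514, with 42 counts in untreated and 24 in treated MiaPaCa-2, 0 in untreated and 1 in treated PANC-1 (edgeR adjusted p = 0.184). On the higher side were hsa_circ_0012152, with a log2 fold change of 2.70 (SE 0.35, edgeR adjusted p = 0.184), and hsa_circ_0085616, with 1.85 (SE 0.29, edgeR adjusted p = 0.197). The count was not stable. DESeq2 called 9 circles higher and 4 lower, beside 35 and 36 among all 827 identifiers. In a fit with the line term alone and all 4 libraries, edgeR called 26 circles, beside 92 higher and 66 lower among all 827 identifiers.

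TQ was then compared with control within each line, to ask which circles differ after treatment. In MiaPaCa-2, 174 of the 9662 circles had at least 10 counts over the pair of libraries. Higher in TQ were 8 (4.598%, beside 4.07% of all 1130 identifiers considered) and lower were 7 (4.02%, beside 6.55% of all). Numbers under 100000 gave 6 higher and 7 lower of 144, and numbers from 100000 gave 2 higher and 0 lower of 30. The median log2 ratio of the 174 was -0.07 and that of all identifiers considered -0.27. Summed over all 9662 circles, the scaled ratio of TQ to control was 0.820 (95% interval 0.788 to 0.853), and for all identifiers it was 0.841 (0.826 to 0.857). The latter is the ratio of library totals (0.351) over that of the scales (0.417), so it is set by the scaling. By TMM over every identifier the ratio of scales was 0.587. These sums therefore do not show a fall of circles with TQ.

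The 8 circles higher in treated MiaPaCa-2 had 3 to 19 counts in control and 8 to 23 in TQ, all above 0 in both. The circle whose interval lay farthest from 1 among numbers from 100000 was hsa_circ_0136098, with 3 counts untreated and 14 treated, giving a ratio of 11.2 (99% interval 2.30 to 112). Among numbers under 100000 it was hsa_circ_0050119, with 7 and 16 counts and a ratio of 5.48 (1.65 to 22.2). Of the 7 lower circles, 5 had 0 in TQ, beside 43 of 74 among all identifiers. The farthest was hsa_circ_0024960, with 23 counts untreated and 0 treated, which made it 3.20-fold lower when the zero was set to 3 counts. The upper 99% limit of its ratio was 0.621, so a smaller difference is not excluded. The 2 lower circles with counts in both libraries, named after their values were seen, were hsa_circ_0030720, with 29 and 2 counts, and hsa_circ_0054853, with 27 and 2. The split turned with the scaling, to 13 higher and 3 lower by total counts, and TMM over every identifier gave 3 and 15. The median of all identifiers considered moved with it, to -0.06 and -0.70, so the direction of the MiaPaCa-2 balance depended on the scale.

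In PANC-1, 510 circles had at least 10 counts over control and TQ. Higher in TQ were 23 (4.51%, beside 5.68% of all 2289 identifiers considered) and lower were 8 (1.57%, beside 3.19%). Numbers under 100000 gave 17 higher and 7 lower of 413, and numbers from 100000 gave 6 and 1 of 97. The median log2 ratio of the 510 was -0.05 and that of all identifiers considered 0.0071. Summed over all 9662 circles, the scaled ratio was 1.02 (95% interval 0.996 to 1.04), beside 1.01 for all identifiers, and such sums move with the scale. For numbers from 100000 alone it was 1.08 (1.03 to 1.13), and for numbers under 100000 the interval was 0.973 to 1.03.

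All but 1 of the 23 circles higher in treated PANC-1 had 0 counts in control, beside 109 of 130 among all identifiers. The 23 had 10 to 55 counts in TQ. The farthest among numbers from 100000 was hsa_circ_0119881, whose 0 and 55 counts made it 13.3-fold higher against the floor of 3 counts (lower 99% limit 7.16). In MiaPaCa-2 its ratio was 1.05 (99% interval 0.259 to 3.48). Among numbers under 100000 it was hsa_circ_0040809, with 0 and 47 counts, 11.3-fold higher by that floor (lower limit 6.06). That circle had 18 and 11 counts in untreated and treated MiaPaCa-2, a ratio of 1.47 (0.479 to 4.12). Both were therefore counted in every library except untreated PANC-1. The 1 higher circle with counts in both libraries, named after its values were seen, was hsa_circ_0077216, with 5 and 28 counts and a ratio of 4.05 (1.22 to 20.4).

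Of the 8 circles lower in treated PANC-1, 4 had 0 counts there, beside 42 of 73 among all identifiers. The farthest among numbers under 100000 was hsa_circ_0057041, with 15 counts untreated and 0 treated, 6.91-fold lower by the same floor (upper 99% limit 0.307). It also had 9 and 0 counts in MiaPaCa-2, where it missed the minimum of 10. Among numbers from 100000 it was hsa_circ_0130863, with 13 and 0 counts, 5.99-fold lower by that floor (upper limit 0.364), and with 4 and 0 in MiaPaCa-2. In both, each TQ library was at 0 and each control library above it. Their MiaPaCa-2 intervals include 1, with upper 99% limits of 1.92 for hsa_circ_0057041 and 6.62 for hsa_circ_0130863, so no repeat of the difference in MiaPaCa-2 is shown. The lean toward higher calls depended on the minimum of counts: without it there were 23 higher and 30 lower, and at 20 counts 3 and 1. Among the 484 circles considered that were above 0 in both libraries, 1 was higher and 4 were lower, beside 21 and 31 of 2138 identifiers. TMM over every identifier gave 26 higher and 5 lower and moved the median of all identifiers to 0.19.

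**Figure D5:**
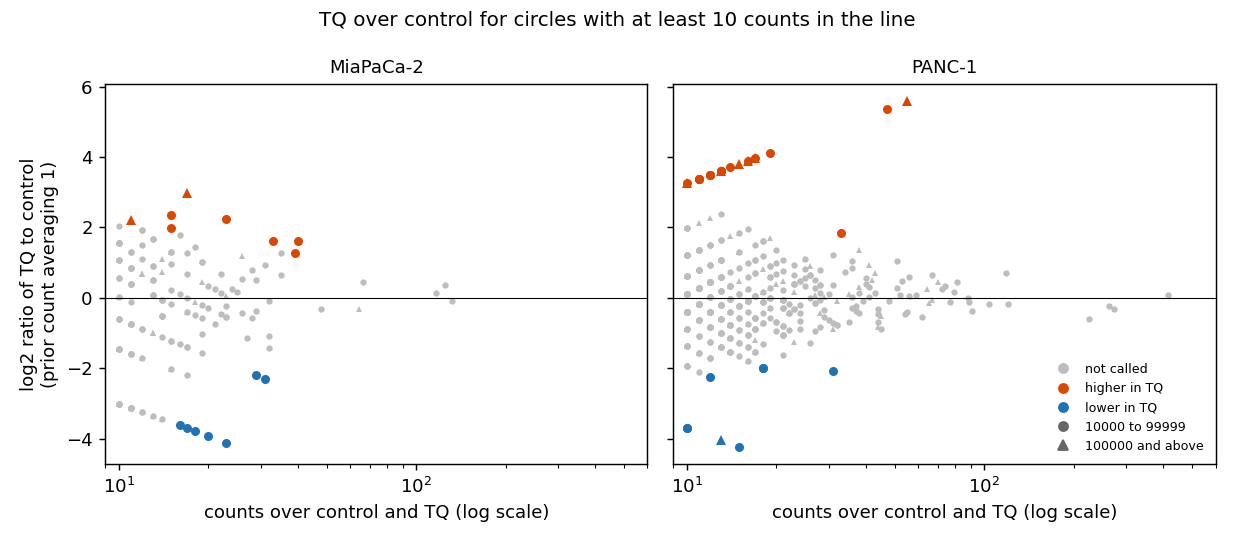
The log2 ratio of TQ to control (vertical axis, prior count averaging 1 per library) against the counts over both libraries (horizontal axis, log scale) in MiaPaCa-2 (left) and PANC-1 (right), for the 174 and 510 circles with at least 10 counts. Circles higher in TQ (8 and 23) and lower in TQ (7 and 8) are coloured (3 higher and 15 lower in MiaPaCa-2 with TMM over every identifier), and the outer rows of points are circles with 0 counts in the control or the TQ library.

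Of the 20 circles named above for their abundance, 15 reached 10 counts over the MiaPaCa-2 pair and 1 of these was called there, where 8.62% of all 174 circles considered in that line were called in either direction. This was hsa_circ_0046263, with a ratio of 2.53 (99% interval 1.04 to 6.14), while its PANC-1 ratio was 0.998 (0.562 to 1.80). The ratios of the 15 ran from 0.343 to 2.54 in MiaPaCa-2. In PANC-1 all 20 had enough counts and 1 was called, hsa_circ_0119881, where 6.08% of the 510 circles considered were called, and the ratios of the other 19 ran from 0.651 to 1.97. The PANC-1 ratio of hsa_circ_0012152 was 0.651 (0.457 to 0.925), whose interval excludes 1 but which is nearer to 1 than the fold asked for. Its MiaPaCa-2 ratio was 0.666 (0.127 to 2.42). No circle with at least 50 counts over MiaPaCa-2 was called (5 circles), and 1 of the 31 with at least 50 over PANC-1 was.

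Calls were then compared between the lines. Among 95 circles with at least 10 counts in each line, 1 was higher in TQ in both, hsa_circ_0050119, which had 7, 16, 0 and 11 counts in untreated MiaPaCa-2, treated MiaPaCa-2, untreated PANC-1 and treated PANC-1. In PANC-1 it was 2.65-fold higher by that floor (lower 99% limit 1.17). None of the 95 was lower in both or called in opposite directions. Among the 777 identifiers of the table with as many counts, 3 were higher in both, 3 were lower in both and 4 and 1 were called in opposite directions. The log2 ratios of both lines had a Pearson r of 0.13 and a Spearman rho of 0.11 across the 95 circles, given as a description, since the circles share the same 4 libraries and their scales. In 47 of the 95 the ratio was on the same side of 1 in both lines and in 48 on opposite sides, beside 355 and 422 of the 777 identifiers, for which r was -0.06 and rho -0.09.

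For TQ against control over both lines, edgeR called 0 of the 101 circles tested, beside 0% of all 827 identifiers in either direction. An unadjusted edgeR p under 0.05 was seen for 0 of the 101, beside 5 of all 827. DESeq2 called 0, with 1 unadjusted, beside 9 of all 827. The lowest p on the higher side was that of hsa_circ_0067790, with 14 counts in untreated and 19 in treated MiaPaCa-2, 2 in untreated and 5 in treated PANC-1, and a log2 fold change of 1.39 (SE 0.72, edgeR adjusted p = 0.998). On the lower side it was hsa_circ_0012152, with a log2 fold change of -0.61 (SE 0.34, edgeR adjusted p = 0.998). With 1 residual degree of freedom, a p that misses the threshold does not show that the levels were equal.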

How the data were processed

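Back-splice reads of 4 libraries, 1 for each line and treatment, were compared. The values are whole-number counts per circle, as the authors deposited them, not normalized. Per the submitters' processing notes, the build was GRCh38.p13 and the tools included Bowtie2, TopHat2, TopHat, cutadapt, FastQC and edgeR, with no versions. The circRNA caller is not given by the sources used here, nor whether the libraries came from separate cultures or whether PCR copies were removed, so intervals and floors cover counting error only. No column of values was left out (0). Identifiers with a suffix after the number (18 circles) were kept as rows of their own.

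Scales were TMM factors (edgeR 4.0.16, R 4.3.3) on the 827 identifiers that passed edgeR's filter on low counts. Ratios had exact conditional binomial intervals, and log2 ratios a prior count averaging 1 per library (Python 3.11.15, scipy 1.17.1). For fold values against a zero, the zero was set to a floor of 3 counts. The other count was taken as exact, so these fold values are not limits. The edgeR quasi-likelihood test ran on the whole table with Benjamini-Hochberg adjustment at 0.05, and DESeq2 1.42.0 was an alternative. The edgeR fit for TQ against control was run on simulated data, and the DESeq2 alternative was not.

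Circles named are the 10 most abundant of each number class, the called circle whose 99% bound lies farthest from 1 in each line, direction and class, up to 2 per direction called alike in both lines or oppositely, the lowest p of the edgeR tests, and 11 circles known from cancer studies, 4 of them not analysed here. Others are said to be named after their values were seen. The circles, lists and rules were chosen with earlier results of these data known. The comparison of lines by size of ratio, its alternatives, leaving out circles with a zero or a suffix, and DESeq2 size factors over every identifier were added after seeing the data. Other alternatives were other scales, minimums, intervals and folds, each library left out in turn, other denominators and other detection limits.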

Additional observations from a re-analysis of the deposited data

Results flagged for a closer look

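The share of back-splice counts taken by circles from 10000 upward had differences of opposite sign between TQ and control in the lines. TQ minus control was -0.557 percentage points in MiaPaCa-2 and 0.197 points in PANC-1. Within each line the 95% intervals of the shares overlapped. With circBase counts as the denominator both directions reversed, from 31.0% to 31.1% in MiaPaCa-2 and from 34.8% to 34.7% in PANC-1. For numbers from 100000 alone the change was -0.221 points in MiaPaCa-2 and 0.401 points in PANC-1. There the intervals overlapped in MiaPaCa-2 (5.53 to 5.96 in control and 5.17 to 5.89 in TQ) and not in PANC-1 (5.79 to 6.21 and 6.22 to 6.59), from counting error only. Each line has 1 library per treatment, so the difference between lines was not tested.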

How the results depend on the processing

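Counts of called circles depended on the scale, the minimum and the treatment of zeros. For treated MiaPaCa-2, 8 circles were higher and 7 lower. Total counts gave 13 and 3, TMM over every identifier 3 and 15, DESeq2 size factors over every identifier 1 and 39, a minimum of 20 counts 4 and 4, and 95% intervals 17 and 22. No minimum gave 22 higher, a fold of 4 gave 5 higher, and circles above 0 in both libraries gave 2 lower. For treated PANC-1, 23 were higher and 8 lower. A minimum of 20 counts gave 3 and 1, 95% intervals 35 and 24, and circles above 0 in both libraries 1 and 4. TMM over every identifier gave 5 lower and no minimum 30 lower.

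Between the control libraries, 63 circles were higher in PANC-1 and 27 lower. A minimum of 20 counts gave 21 and 6, and circles above 0 in both libraries 20 and 9. Between the TQ libraries, 26 were higher and 16 lower. TMM over every identifier gave 71 and 10, circles above 0 in both gave 8 higher, and a minimum of 20 counts gave 7 lower. The edgeR line comparison called 0 circles, where DESeq2 called 13, no filter gave 4, total counts 17 and the line term alone 26. Among all identifiers these settings called 35 higher and 36 lower, 10 and 5, 47 and 44, and 92 and 66, in that order. Leaving out each library gave 0 to 70, with 70 without untreated MiaPaCa-2, 35 without treated MiaPaCa-2, 16 without treated PANC-1 and 0 without untreated PANC-1. In these fits a lone library of a line is assumed to vary like the others. Each tested more circles than the 101 among 827 identifiers of the main fit, so these counts do not share its denominator. In the order just given, the fits tested 220, 226, 168 and 184 circles, among 1260, 1346, 1154 and 1195 identifiers. The edgeR treatment comparison called 0 circles under every alternative run.

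With circBase counts as the denominator, the share of circles from 10000 upward was 31.0% in untreated and 31.1% in treated MiaPaCa-2, and 34.8% in untreated and 34.7% in treated PANC-1. With circles of at least 2 counts only, it was 19.8%, 19.2%, 22.0% and 22.1%. The part found in both lines was 23.7%, and 21.7% at 2 counts, 19.3% at 5 counts, 19.8% in the control libraries and 12.1% in the TQ libraries. Other alternatives stayed within 1.5 times of the count. Except where the construction shows it (fewer circles considered, fewer libraries), the cause of these shifts was not tested. No pairing beyond the line was possible because each group has a single library, so the line term is the only block and is already in the edgeR fit. Depth limits what could be called: 174 of 9662 circles reached 10 counts over the MiaPaCa-2 libraries and 510 over those of PANC-1.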

Other observations

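Presence with treatment alone was uncommon among the circles from 10000 upward. Counts in both TQ libraries and in neither control library were seen for 141 of 9662 circles (1.46%), beside 1.14% of all identifiers. Counts in both control libraries and in neither TQ library were seen for 346 (3.58%), beside 2.69% of all. The treated MiaPaCa-2 library was the shallowest of the 4, and the part of depth in these numbers was not tested.

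Singly counted circles made up 52.2% of the circles detected in treated MiaPaCa-2, against 44.0% in untreated MiaPaCa-2, 43.8% in untreated PANC-1 and 41.7% in treated PANC-1. The mean was 2.17 counts per detected circle in treated MiaPaCa-2 and 2.68, 2.89 and 3.14 in the other libraries in that order. At least 10 counts were reached by 103 circles in untreated MiaPaCa-2, 22 in treated MiaPaCa-2, 142 in untreated PANC-1 and 212 in treated PANC-1, the same order as the depth of the libraries.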
